A study of Mus musculus with 12 samples.

Results

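The comparison set mouse embryonic stem (ES) cells that lack Ring1B against wild type ES cells. It covered every probe set with 1 gene symbol in the platform annotation, 34945 of the 45101 probe sets on the array, which stand for 18193 genes, and 6 of the 12 arrays of the series. The groups were 3 arrays of wild type cells and 3 of cells whose Ring1B gene had been inactivated by gene targeting. Cells with a targeted Eed gene and cells in which Ring1B had been targeted on that Eed deficient background, 3 arrays each, entered only where named. All were cultured ES cells, judged undifferentiated by colony shape before the RNA was extracted. The labels call the 3 arrays of a genotype biological replicates and describe no second line of any genotype. The p-values therefore measure the spread between cultures, and a difference between lines cannot be told apart from a difference between genotypes.

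Ring1B, encoded by Rnf2, is the main ubiquitin ligase of Polycomb repressive complex 1 (PRC1), which places a single ubiquitin on histone H2A. PRC1 comes in several forms. The canonical forms carry a Cbx protein that reads the histone mark of Polycomb repressive complex 2 (PRC2), of which Eed is a subunit. Variant forms reach DNA by other routes, and 1 of them, PRC1.6, holds Pcgf6, E2F6, Mga and Max and is known for silencing germline genes in ES cells.

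The targeted gene was read first. Rnf2 signal was 777, 994 and 781 in the wild type arrays and 398, 529 and 476 in the Ring1B deficient arrays, a log2 change of -0.86 ± 0.16 (SE, adjusted p = 0.00626). A second probe set of Rnf2 gave 553, 701 and 642 against 304, 340 and 347. A dimmer one ran the other way, at 26.0, 25.6 and 38.0 in wild type and 55.5, 55.3 and 69.7 in Ring1B deficient cells. The 2 bright probe sets were thus lower but not absent, and averaging the probe sets of Rnf2 ended its call. Where each lies relative to the targeted part was not used here. The paralog Ring1 (54.7, 33.4 and 37.0 against 42.8, 42.3 and 47.6) was not called (adjusted p = 0.824). Eed was at 1547, 1248 and 1489 against 1463, 1496 and 1969 and was not called either (adjusted p = 0.727).

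Values are MAS5 signals, which are scaled array intensities without a unit. The median signal of the 6 arrays ran from 19.07 to 21.82, and the number of arrays limits the precision. Log2 signals correlated across genes at 0.963 to 0.982 between replicates and at 0.930 to 0.964 between the genotypes. Changes were computed on log2(signal + 5), so those of dim genes are smaller than the ratio of their signals. A gene was called at a Benjamini-Hochberg adjusted p under 0.05 in limma.

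Of 13985 genes tested, 1005 (7.19%) were called, 655 (4.68%) of them higher and 350 (2.5%) lower in Ring1B deficient cells. The rises were also the larger changes. A log2 change of at least 1 was reached by 356 of the higher and 119 of the lower genes, and one of at least 2 by 64 and 15. The genes that rose had been dim, with a median signal of 42.1 in wild type and 100.5 in Ring1B deficient cells. Those that fell had a median of 153.2 in wild type and 76.9 in Ring1B deficient cells. Where a higher gene had a further probe set, the next brightest moved the same way in 260 of 279 genes, and for lower genes in 178 of 185. It was itself called the same way in 116 of the 279 and in 59 of the 185. In 1 higher gene and 0 lower genes it was called the other way. These probe sets were read on the same arrays. Leaving out Ring1B deficient replicate 2 brought the higher genes to 431. The lower genes came to 193 without wild type replicate 3, to 201 without Ring1B deficient replicate 2 and to 158 without Ring1B deficient replicate 3.

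**Figure D1:**
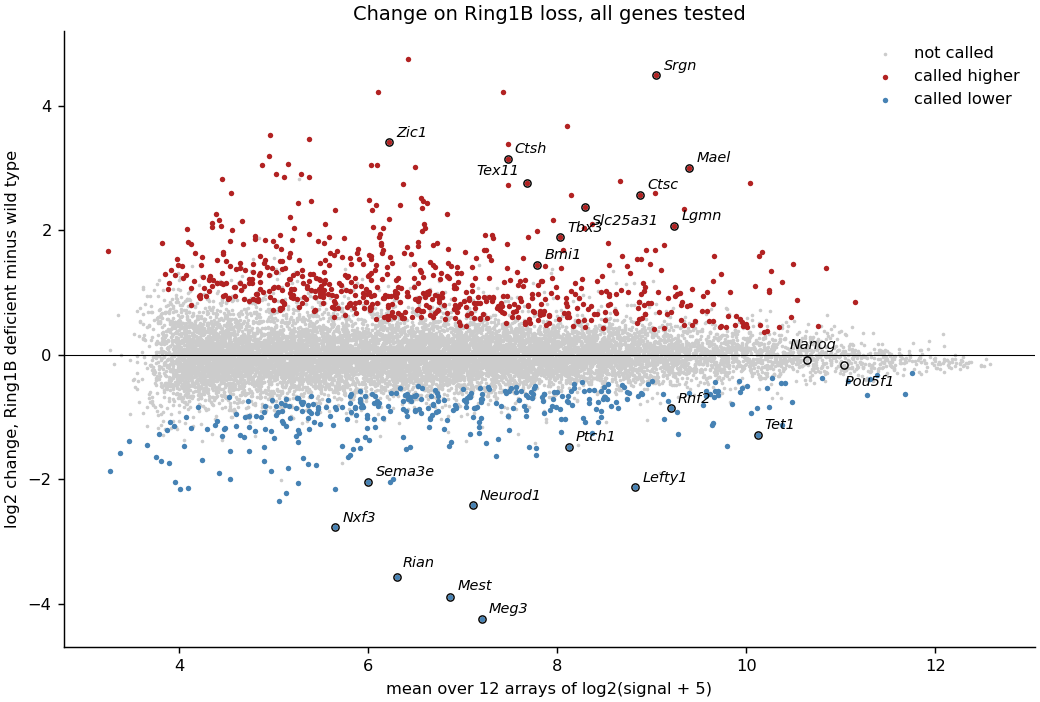
Each point is 1 of 13985 genes: the x axis is its mean log2(signal + 5) over 12 arrays, the y axis its log2 change between 3 Ring1B deficient and 3 wild type arrays. The 655 genes called higher reach further from 0 than the 350 called lower, and Pou5f1 and Nanog lie close to the zero line.

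The wild type arrays stood apart on chromosome 11. There the median log2 change of 1146 tested genes was -0.18, while the median over the other chromosomes was -0.0001. Of these genes 72.9% had a negative change, against 50% elsewhere. The level of chromosome 11 relative to its mean over all 12 arrays was 0.13, 0.10 and 0.18 in the wild type arrays and lay between -0.06 and -0.02 in the other 9. Genes lower in Ring1B deficient cells made up 5.15% of chromosome 11 and 2.28% of the rest, and 59 of the 350 lay there. On chromosome 1 the median was 0.10, with 62 genes higher and 10 lower among 792. With the genes of chromosome 11 left out, 625 genes were higher and 289 lower. Copy number was not measured, and its part in these values was not tested.

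**Figure D2:**
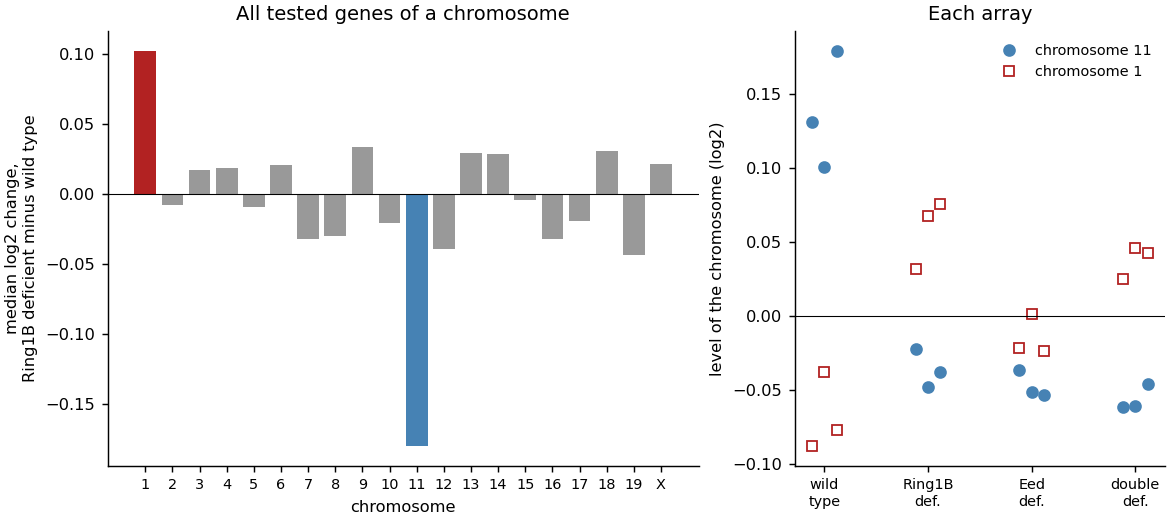
Left, bars give the median log2 change of all tested genes on each chromosome; right, points give the level of chromosomes 11 and 1 in each array, as log2 against the mean of all 12 arrays. Chromosome 11 is high in the 3 wild type arrays and between -0.06 and -0.02 in the other 9.

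Markers of other cell types differed between the arrays too. The summed signal of 25 primitive and visceral endoderm genes was 2400 to 3013 in the wild type arrays and 7470, 10482 and 7796 in the Ring1B deficient arrays, highest in replicate 2, and 19 of the 25 were higher. The sum over 18 trophoblast genes was 1147 to 2020 against 2619, 3892 and 2139, with 7 higher and 0 lower. That count came to 3 or 4 without any array but wild type replicate 2. Fibroblast and feeder cell genes summed to 5516 to 5989 in wild type and 3985 to 5202 in Ring1B deficient cells, with 1 of 28 higher. Macrophage genes summed to 359 to 537 against 473 to 515, with 1 of 13 higher. Over all genes 4.68% were higher. Blood and endothelial genes summed to 576 to 738 in wild type and 1708 to 2179 in Ring1B deficient cells, with 4 of 18 higher and 2 lower. The granule proteoglycan gene Srgn made up most of the second sum, and the other 17 genes summed to 536 to 678 in wild type and 583 to 588 in Ring1B deficient cells. Without wild type replicate 3 or Ring1B deficient replicate 1, 2 of the blood and endothelial genes were higher. Fewer or more cells of a type and less or more RNA per cell cannot be told apart in these bulk samples, and the part of such cells in the changes below was not tested.

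Many germline genes rose. The group encodes the proteins of meiosis and of the piRNA pathway, the small-RNA defence of germ cells against transposons, and most of it is normally silent outside the germline. Over the lists of PRC1.6 and E2F6 target genes, piRNA pathway genes and meiosis genes together, 21 of 58 tested members were higher (36.2%) and 2 were lower, with a median log2 change of 0.38 against -0.01 over all genes. Leaving out 1 array at a time left between 17 and 22 of them higher. The 2 lower genes became 5 without wild type replicate 1 and 1 without wild type replicate 2 or 3 or Ring1B deficient replicate 1 or 3.

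In the list of PRC1.6 and E2F6 targets, 10 of 21 were higher and 0 lower, with a median log2 change of 1.37. Without wild type replicate 1, 9 were higher and 2 lower, and without Ring1B deficient replicate 2, 9 were higher and 1 lower. Mael, a piRNA pathway protein of male germ cells, had signals of 174, 230 and 260 in wild type and 1662, 1954 and 1766 in Ring1B deficient cells (log2 change 3.01 ± 0.16 SE, adjusted p = 1.1e-07). No array of the 2 groups came near the other group. Tex11, an X-linked meiosis gene, went from 52.6, 47.3 and 102 to 466, 376 and 561 (2.76 ± 0.24, adjusted p = 9.7e-06). Slc25a31, the germ cell ADP/ATP carrier of mitochondria, read 69.8, 88.2 and 168 in wild type and 415, 543 and 729 in Ring1B deficient cells (2.38 ± 0.35, adjusted p = 0.00102). Here the replicates of each genotype differed among themselves by more than those of Mael. The Ring1B deficient arrays still all lay above the wild type arrays, as in 11.9% of all genes. Ddx4, the Vasa RNA helicase of germ cells, rose from 228, 420 and 344 to 849, 974 and 862 (1.46 ± 0.22, adjusted p = 0.00093). Stk31, Sycp2, Taf7l, Tdrd1, Tdrkh and Tex101 were the other 6, with log2 changes from 1.41 for Taf7l to 2.86 for Tex101. Tdrd1 was near the background, at 0.507, 0.647 and 0.597 against 15.2, 14.0 and 9.40, and its call ended when wild type replicate 1 or 3 or Ring1B deficient replicate 1 or 2 was left out.

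Other targets were not called. The meiosis genes Sycp3, which encodes an axis protein of meiotic chromosomes, and Hormad1, a checkpoint protein of that axis, had log2 changes of -0.43 (adjusted p = 0.651) and -1.05 (adjusted p = 0.0782). Sycp3 stood at 370, 1058 and 653 in wild type and at 367, 704 and 401 in Ring1B deficient cells, so the groups overlapped. Brdt, a testis bromodomain protein, had a log2 change of 1.18 that was not called (adjusted p = 0.068).

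Promoters of this list are printed because PRC1.6 holds Mga and Max, which are known to bind the E-box CACGTG. The stretch shown runs over the 110 bases before the transcription start, 5′ to 3′ on the gene's strand, from RefSeq promoters of GRCm38.p6, with the E-box in capitals. First come 5 listed genes that were higher, then the meiosis gene Tex12, which was higher too.
Slc25a31, chr3:40708761-40708870, plus strand: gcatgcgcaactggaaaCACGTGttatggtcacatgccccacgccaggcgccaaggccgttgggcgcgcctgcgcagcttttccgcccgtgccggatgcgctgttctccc
Stk31, chr6:49395429-49395538, plus strand: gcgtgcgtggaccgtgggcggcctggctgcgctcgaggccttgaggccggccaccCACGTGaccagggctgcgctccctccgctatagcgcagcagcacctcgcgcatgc
Tdrd1, chr19:56826099-56826208, plus strand: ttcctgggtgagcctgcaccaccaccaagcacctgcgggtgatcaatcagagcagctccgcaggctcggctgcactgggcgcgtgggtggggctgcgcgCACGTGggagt
Ddx4, chr13:112652311-112652420, minus strand: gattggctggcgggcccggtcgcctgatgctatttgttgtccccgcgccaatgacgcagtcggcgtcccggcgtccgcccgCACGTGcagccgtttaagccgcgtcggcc
Taf7l, chrX:134476491-134476600, minus strand: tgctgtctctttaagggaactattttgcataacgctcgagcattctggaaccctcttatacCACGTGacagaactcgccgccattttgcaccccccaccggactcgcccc
Tex12, chr9:50561269-50561378, minus strand: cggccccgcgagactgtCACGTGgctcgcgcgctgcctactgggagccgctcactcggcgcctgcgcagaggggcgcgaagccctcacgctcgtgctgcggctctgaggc
Only promoters with the E-box are printed. Sycp1 and Hormad1 of the list were not called and hold it too, but are not shown. The following 2 belong to genes of the same list that were not called.
Brdt, chr5:107331084-107331193, plus strand: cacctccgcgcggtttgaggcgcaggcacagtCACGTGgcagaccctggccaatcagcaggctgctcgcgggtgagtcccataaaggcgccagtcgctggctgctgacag
Sycp3, chr10:88459477-88459586, plus strand: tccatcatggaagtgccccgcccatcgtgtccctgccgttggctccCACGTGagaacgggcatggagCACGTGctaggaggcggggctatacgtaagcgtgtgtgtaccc
CACGTG reads the same on both strands. It stood 11 to 93 bases before the start in the first 6 and 78 bases before it in Brdt, while Sycp3 held 2 copies. The start is that of the RefSeq promoter used. For Stk31, Tdrd1, Ddx4, Taf7l and Brdt the RefSeq gene begins upstream of it. In this window it occurred in 9 of the 18 listed genes with a promoter in RefSeq (50%), in 4.86% of all 11208 tested genes with one, in 6.45% of the genes called higher and in 3.64% of those called lower. Within the list it was found in 5 of 9 genes called higher and in 4 of 9 not called. The members were picked as targets of a complex that holds E-box binders, so a high share in the list is not an independent result. Tex12 is not among these 18. The E2F motif TCCCGC or its reverse GCGGGA was in 2 of the 18 and in 18.1% of all genes. Over the 300 bases from 250 before to 50 after the start it was in 10 of the 18 (55.6%) and in 34.5% of all genes, and the E-box in 11 of the 18 (61.1%) and in 10.1%. The motifs can share a base where they meet. A match is a description of the sequence only.

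The piRNA list gave 8 higher and 1 lower of 17 tested, with a median log2 change of 0.76. Beside Mael, Ddx4, Tdrd1 and Tdrkh these were Mov10l1, the helicase that starts piRNA production, Piwil2, an Argonaute-like piRNA carrier, and the Tudor proteins Rnf17 and Tdrd5. Mov10l1 read 30.6, 50.6 and 41.9 in wild type and 202, 242 and 238 in Ring1B deficient cells (2.36 ± 0.23, adjusted p = 3.1e-05). Piwil2 read 77.2, 63.3 and 78.0 against 267, 237 and 229 (1.68 ± 0.14, adjusted p = 8.1e-06). The groups lay far apart for both. The nuclear Piwil4 was the member that fell, from 38.1, 56.2 and 81.0 to 26.0, 23.9 and 28.1 (-0.98 ± 0.24, adjusted p = 0.0273), and 5 of the 6 arrays ended this call when left out, all but wild type replicate 1.

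Of 34 meiosis genes 10 were higher and 1 was lower, with a median log2 change of 0.28. Without wild type replicate 1, 7 were higher and 4 lower, and without Ring1B deficient replicate 2, 9 were higher and 2 lower. The rises included proteins of the synaptonemal complex, the scaffold that joins paired chromosomes: Sycp2, Syce1, Syce3 and Tex12. Syce1 went from 152, 141 and 265 to 455, 551 and 645 (1.58 ± 0.21, adjusted p = 0.00042). Tex12 went from 14.3, 31.6 and 18.7 to 57.5, 134 and 135 (2.06 ± 0.42, adjusted p = 0.00967). Syce3 lost its call without wild type replicate 1, and Tex15, a meiotic gene with a log2 change of 1.92, without wild type replicate 1 or Ring1B deficient replicate 3. Hsf2bp, a partner of meiotic recombination proteins, fell from 357, 516 and 472 to 121, 148 and 160 (-1.61 ± 0.19, adjusted p = 0.00016). Every Ring1B deficient array was below every wild type array, as in 10.8% of all genes. In the Rhox cluster of X-linked reproductive homeobox genes, 2 of 4 rose, Rhox13 from 79.6, 84.5 and 122 to 362, 471 and 496 and Rhox5 from 487, 503 and 832 to 1261, 1623 and 1656.

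**Figure D3:**
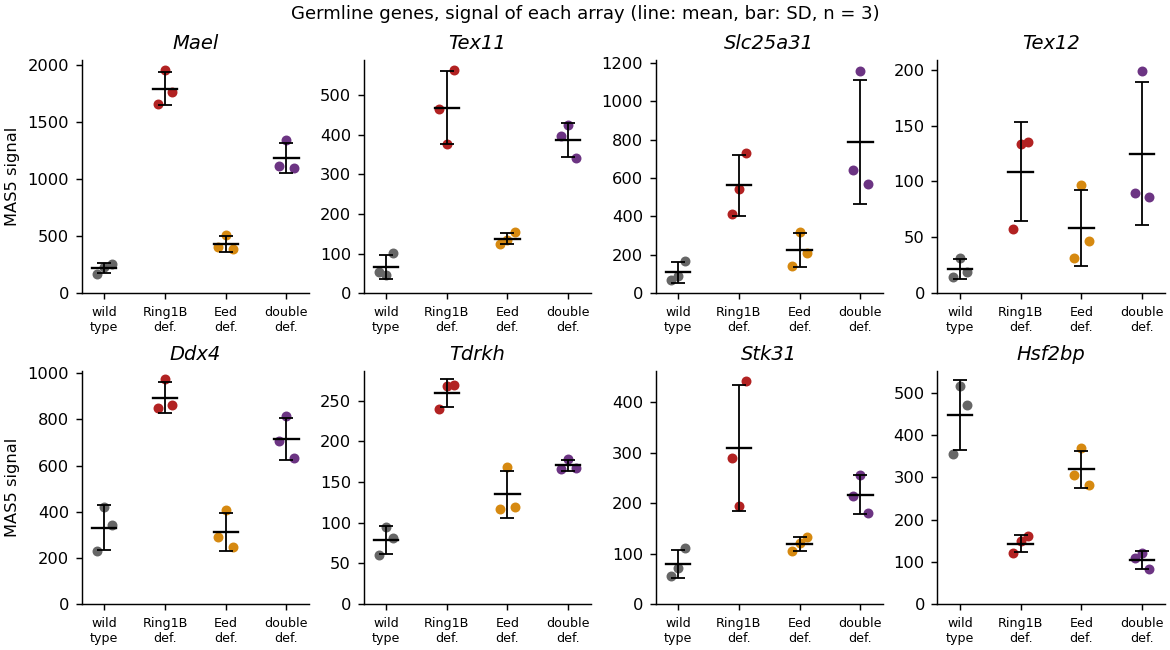
MAS5 signal of 8 germline genes in each of the 12 arrays, by genotype, with the mean as a line and the SD as a bar (n = 3). In 7 genes the Ring1B deficient arrays lie above the wild type arrays, and in Hsf2bp they lie below.

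Among the genes for Polycomb subunits the calls were in PRC1. Of 25 PRC1 subunit genes, 5 were higher and Rnf2 was lower, 24% called beside 7.19% of all genes. Bmi1, a Pcgf subunit of canonical PRC1, rose from 87.5, 71.2 and 97.5 to 245, 222 and 253 (1.45 ± 0.14, adjusted p = 3.1e-05). Its Ring1B deficient arrays all lay above the wild type arrays, as in 11.9% of all genes, and its call held without each array. Pcgf5 (0.85), the Cbx subunit Cbx8 (0.82), E2f6 (0.69) and Yaf2 (0.57) rose less, with adjusted p from 0.0141 to 0.0393. Their calls all ended when the 6 wild type and Ring1B deficient arrays were fitted alone. That of E2f6 also ended with the mean of its probe sets, and that of Yaf2 with median centring or without the intensity trend. Between 2 and 3 of the 5 stayed called without any 1 of the 6 arrays: 2 without Ring1B deficient replicate 2 or 3 and 3 without any of the other 4. Among the other PRC1.6 subunits, Pcgf6 (0.13) and Mga (-0.16) were not called. None of 12 PRC2 genes was called by limma, where 0 had an unadjusted p under 0.05 in the direction higher and 1 in the direction lower. Ezh2, its methyltransferase, was at -0.19 and Suz12 at -0.06.

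Around Polycomb, Mbd2, a reader of DNA methylation, rose from 52.9, 66.0 and 66.2 to 128, 129 and 148 (1.07 ± 0.17, adjusted p = 0.0018), a call that ended with the mean of its probe sets. Tet1, which oxidises methylcytosine, had 1730, 1311 and 1920 against 920, 388 and 837 (-1.28 ± 0.36, adjusted p = 0.0472). The Ring1B deficient arrays of Tet1 all lay below the wild type arrays, as in 10.8% of all genes. Its call was kept only when Ring1B deficient replicate 1 was the array left out. These were the calls among 14 DNA methylation genes (14.3%). Of 19 Trithorax and H2A deubiquitinase genes, Rbbp5 was higher (0.66) and Asxl1 lower (-0.82), 10.5% called beside 7.19% of all genes. The Asxl1 call ended without any array but Ring1B deficient replicate 1, with adjusted p up to 0.11, and with the mean of probe sets. For histones, limma called 0 of 17 core histone genes, of which 1 had an unadjusted p under 0.05.

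Lists of developmental transcription factors outside the Hox clusters differed in direction. Of 10 T-box genes, regulators of early mesoderm and other lineages, 6 were higher (60%, beside 4.68% of all genes) and 0 lower. Their median log2 change was 1.18. Tbx3 was the one with a high signal, at 97.4, 48.8 and 164 in wild type and 496, 280 and 324 in Ring1B deficient cells (1.88 ± 0.36, adjusted p = 0.00687). Tbx15 went from 0.709, 10.6 and 1.80 to 70.8, 50.7 and 49.5, Tbx20 from 6.22, 8.67 and 2.73 to 39.3, 28.5 and 30.5 and Eomes from 34.7, 27.7 and 33.1 to 105, 78.5 and 63.2. For all these genes the lowest Ring1B deficient array exceeded the highest wild type array, as it did in 11.9% of all genes. Of 23 mesoderm and primitive streak genes, a list that shares members with the T-box genes, 11 were higher (47.8%) and 0 lower (median 0.82). Pdgfra, a growth factor receptor of mesoderm and primitive endoderm, had the next largest rise after Tbx15, from 8.55, 16.7 and 9.08 to 53.9, 110 and 86.6 (2.41 ± 0.27, adjusted p = 0.00013).

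Of 23 homeobox genes of the Lhx, Irx, Nkx, Dlx and sine oculis families, 6 rose and 0 fell, among them Lhx2, a forebrain regulator, from 2.13, 10.2 and 7.98 to 38.0, 34.5 and 26.4. Of 60 other homeobox genes 13 rose and 2 fell, and the 13 came to 8 without Ring1B deficient replicate 1 or 2 and to 7 without wild type replicate 3. Meis2, a Hox cofactor, rose from 33.6, 19.7 and 17.4 to 115, 70.9 and 127 (1.94 ± 0.27, adjusted p = 0.00059). The 2 falls among these other homeobox genes came to 0 without wild type replicate 1 or Ring1B deficient replicate 2 and to 1 without wild type replicate 3 or Ring1B deficient replicate 3. Of 31 forkhead genes 6 rose and 2 fell. These falls came to 0 without wild type replicate 1 or Ring1B deficient replicate 2 or 3 and to 1 without wild type replicate 2 or Ring1B deficient replicate 1. The shares called in these lists were 26.1%, 25% and 25.8% in the order given, beside 7.19% of all genes. Foxq1 rose from 13.7, 25.0 and 21.8 to 61.9, 66.0 and 57.8 (1.44 ± 0.19, adjusted p = 0.00042). The zinc finger factor Zic1, a regulator of neural development, rose from 10.8, 10.4 and 8.16 to 182, 156 and 124 (3.42 ± 0.17, adjusted p = 6.8e-08).

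Other lists had calls both ways. Of 14 Sox genes 2 were higher and 2 lower (median -0.26), of 34 lineage bHLH genes 5 and 3 (0.26), of 57 Gata, Zic, Gli and Klf genes 5 and 3 (-0.10), of 31 nuclear receptors 1 and 2 (-0.07) and of 6 Pax genes 0 and 1 (0.04). The shares called were 28.6%, 23.5%, 14%, 9.68% and 16.7% in this order, beside 7.19% of all genes. Without wild type replicate 1 or Ring1B deficient replicate 2, 0 Sox genes, 0 zinc finger genes and 0 nuclear receptors were lower. Without Ring1B deficient replicate 3 the lower genes were 0 Sox, 0 zinc finger, 1 nuclear receptor and 1 bHLH gene, and without wild type replicate 2 there were 0 lower Sox genes and nuclear receptors. Without wild type replicate 3 or Ring1B deficient replicate 1, 3 zinc finger genes were higher and 0 nuclear receptors, which were also at 0 without Ring1B deficient replicate 2. Lower calls came to 1 zinc finger gene and 1 nuclear receptor without wild type replicate 3, and without Ring1B deficient replicate 1 to 1 Sox gene.

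Named regulators fell too. Neurod1, a proneural factor, dropped from 460, 469 and 474 to 87.4, 72.5 and 91.5 (-2.42 ± 0.19, adjusted p = 4.8e-06), with very even replicates. Pax6, a regulator of eye and brain, fell from 196, 116 and 104 to 40.7, 35.9 and 45.0 (-1.61 ± 0.23, adjusted p = 0.00077). Mycn, a growth regulator, had 1623, 754 and 790 against 581, 268 and 433 (-1.27 ± 0.34, adjusted p = 0.0376). Its wild type replicate 1 stood above the other 2, and the call ended without wild type replicate 1 or 3 or Ring1B deficient replicate 2 or 3. Of 28 neuronal genes, Tubb3 and Gap43 were lower and Mapt higher, 10.7% called beside 7.19% of all genes. The first 2 calls ended without any 1 of 4 arrays. That of Mapt ended without wild type replicate 1 or 2 or Ring1B deficient replicate 3. Of 16 neural progenitor genes 4 were higher and 1 lower, 31.2% called.

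Signalling genes were called in both directions. The share called was 5.56% in the IGF and insulin list, 8% in the LIF list, 10% in the Wnt list, 10.9% in the BMP list, 13.3% in the hedgehog and in the retinoic acid list, 14.1% in the FGF list, 15.1% in the axon guidance list and 19% in the Notch list, beside 7.19% of all genes. In the axon guidance list 3 of 53 were higher and 5 lower, and the 5 came to between 1 and 3 without any 1 of the 6 arrays. In the BMP, TGF-beta and Nodal list 4 of 55 were higher and 2 lower, and the 2 came to 0 without wild type replicate 1 or Ring1B deficient replicate 2 and to 1 without any other array but Ring1B deficient replicate 1. The ligand Bmp4 rose from 66.3, 41.4 and 73.8 to 279, 152 and 317 (1.93 ± 0.28, adjusted p = 0.00086). Id1, a helix-loop-helix inhibitor known as a target of BMP signalling, rose from 422, 223 and 303 to 787, 822 and 1107 (1.53 ± 0.25, adjusted p = 0.00183). Lefty1, an inhibitor of Nodal, had 2131, 1396 and 861 in wild type and 576, 218 and 234 in Ring1B deficient cells (-2.13 ± 0.61). Its adjusted p of 0.0498 lay at the threshold, and the call was kept without Ring1B deficient replicate 1 but with no other array left out.

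In the FGF and ERK list 6 of 71 were higher and 4 lower. The higher count came to 3 without wild type replicate 2 or Ring1B deficient replicate 1 and to 2 without Ring1B deficient replicate 3. Without wild type replicate 1 or 3 or Ring1B deficient replicate 2 the lower count came to 2. Dusp9, a phosphatase that switches ERK off, rose from 193, 194 and 214 to 615, 696 and 480 (1.54 ± 0.16, adjusted p = 4.6e-05). The ligand Fgf17 fell from 237, 119 and 168 to 67.2, 37.1 and 66.7 (-1.52 ± 0.29, adjusted p = 0.00682). Among 15 retinoic acid genes, Cyp26a1, the enzyme that breaks retinoic acid down, rose from 14.0, 12.6 and 10.7 to 73.3, 70.9 and 51.4 (2.00 ± 0.16, adjusted p = 4.8e-06), and 1 other rose. The 2 came to 1 without wild type replicate 1 or any Ring1B deficient replicate.

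The calls in the Notch and hedgehog lists were all falls. Of 21 Notch genes 4 were lower and 0 higher, with a median of -0.19: the ligands Jag1 (-0.99) and Dll1 (-0.99), the regulator Dtx1 (-0.89) and the receptor Notch3 (-0.86). Jag1 went from 250, 181 and 204 to 121, 111 and 80.7, and its call ended with the mean of its probe sets. The Notch count came to 2 without Ring1B deficient replicate 2 or 3. Of 15 hedgehog genes 2 were lower and 0 higher, with a median of -0.27. The receptor Ptch1, itself a target of the pathway, fell from 937, 529 and 482 to 315, 187 and 180 (-1.48 ± 0.30, adjusted p = 0.00844). The transcription factor Gli1, another target, had 88.3, 52.2 and 59.4 against 33.0, 17.9 and 31.7 (-1.14 ± 0.29, adjusted p = 0.0286), and its call ended without wild type replicate 1 or 3 or Ring1B deficient replicate 2 or 3.

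The core pluripotency factors were not called. Pou5f1 (Oct4) read 2904, 2396 and 2906 in wild type and 2196, 2471 and 2676 in Ring1B deficient cells (-0.16 ± 0.11, adjusted p = 0.471), Nanog 1555, 2063 and 2174 against 1625, 1857 and 1933 (-0.09 ± 0.13, adjusted p = 0.775). Sox2 was at 2795, 2890 and 2941 against 2478, 1869 and 2246 (-0.40 ± 0.21, adjusted p = 0.325). All its Ring1B deficient arrays were the lower ones, as in 10.8% of all genes. Of 37 pluripotency genes 3 were higher and 5 lower, 21.6% called beside 7.19% of all genes. Fbxo15, an F-box protein of ES cells, fell from 1700, 1707 and 2004 to 867, 1037 and 1130 (-0.84 ± 0.12, adjusted p = 0.00102). Without 1 array the lower count came to 2 (Ring1B deficient replicate 3) or 3 (Ring1B deficient replicate 2, wild type replicate 1 or 3), and without Ring1B deficient replicate 2 the higher count came to 1.

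Secreted and lysosomal proteins were also among the largest rises, including Srgn of the blood and endothelial list. Srgn, the core protein of a proteoglycan of secretory granules, rose from 39.7, 60.5 and 75.9 to 1124, 1592 and 1494 (4.49 ± 0.19, adjusted p = 3.3e-08). The next genes are 3 cysteine proteases of the lysosome. Ctsh went from 16.8, 28.6 and 26.6 to 175, 442 and 198 (3.15 ± 0.37, adjusted p = 0.00017). Ctsc went from 124, 133 and 133 to 645, 1045 and 749 (2.57 ± 0.21, adjusted p = 7.8e-06). Lgmn went from 134, 239 and 221 to 579, 1223 and 789 (2.07 ± 0.28, adjusted p = 0.00054). Ring1B deficient replicate 2, the array with the highest endoderm sum, was the highest for all of them. Npl, an enzyme of sialic acid breakdown, had the same order, from 155, 264 and 241 to 769, 1582 and 1110. Of 75 proteases and protease inhibitors 8 were higher and 0 lower, 10.7% called beside 7.19% of all genes. Of 80 lysosome and endocytosis genes 9 were higher and 1 lower (12.5% called). Their higher count came to 5 without Ring1B deficient replicate 2 or 3.

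The 3 largest falls, Meg3, Mest and Rian, were in imprinted genes, which are expressed from 1 parental allele. The neighbouring noncoding RNA genes Meg3, Rian and Mirg on chromosome 12 fell together. Meg3 had 1265, 675 and 894 in wild type and 43.9, 37.1 and 50.5 in Ring1B deficient cells (-4.24 ± 0.50, adjusted p = 0.00017). Rian fell from 399, 316 and 369 to 22.3, 25.6 and 29.2, and Mirg from 137, 78.5 and 70.7 to 31.2, 22.0 and 18.8. Mest, a hydrolase gene expressed from the paternal allele on chromosome 6, fell from 555, 361 and 538 to 24.4, 35.8 and 23.1 (-3.90 ± 0.22, adjusted p = 1.6e-07). Most imprinted genes were not called, but 19.2% of the maternally and 24% of the paternally expressed ones were, beside 7.19% of all genes. Of 26 maternally expressed genes 4 were lower and 1 higher (median -0.001). Of 25 paternally expressed genes 4 were lower and 2 higher (median -0.006). Sfmbt2, which encodes a Polycomb-related protein, rose from 186, 169 and 183 to 472, 457 and 427, and the growth inhibitor Cdkn1c from 259, 173 and 175 to 553, 378 and 427.

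Further genes with clear wild type signal fell. Nxf3, an X-linked RNA export factor, went from 88.0, 110 and 163 to 6.57, 13.2 and 21.9 (-2.77 ± 0.32, adjusted p = 0.00014). Actn3, a muscle actinin, went from 154, 122 and 93.2 to 28.8, 24.0 and 17.7 (-2.16 ± 0.23, adjusted p = 6.6e-05). Sema3e, a secreted axon guidance cue, went from 158, 165 and 80.3 to 45.6, 16.8 and 25.7 (-2.04 ± 0.29, adjusted p = 0.00076). That the groups did not overlap in these genes was fixed by the rule that picked them. Slc27a2, a fatty acid transporter, fell by 2.05 on the log2 scale, the cytokine Ltb by 1.83 and the interferon-induced GTPase Gbp2 by 1.65.

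Runs of at least 3 neighbouring tested genes called the same way numbered 7. They comprised 3 Hox clusters, the Meg3 group, Col4a1, Col4a2 and Rab20 on chromosome 8, which were higher, and 2 runs of lower genes. One of these held Ifitm1, Ifitm2 and Ifitm3, interferon-induced membrane proteins that also mark early germ cells, on chromosome 7. Ifitm3 fell from 1284, 1238 and 1247 to 780, 705 and 697 (-0.79 ± 0.12, adjusted p = 0.00151), Ifitm1 changed by -1.13 and Ifitm2 by -0.38. The other held Hdac9, Snx13 and Ahr on chromosome 12, with changes of -1.14, -0.52 and -0.77. The calls of Ifitm1, Ifitm2, Hdac9, Snx13 and Ahr each ended when 1 of 2 to 5 of the arrays was left out, with adjusted p up to 0.14.

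Few housekeeping and growth genes were called in the main fit. Of 45 ribosomal protein genes 0 were called by limma, and 1 was lower and 2 higher at an unadjusted p under 0.05, with a median log2 change of -0.12. Of 58 DNA replication and mitosis genes 1 was called (median -0.09), and of 96 mitochondrial respiration genes 3. Under the alternatives run, up to 15 respiration genes were higher and up to 6 replication and mitosis genes lower. Solute carriers gave 23 higher and 3 lower of 267, 9.74% called beside 7.19% of all genes. Their higher count came to 13 without Ring1B deficient replicate 3 and to 15 without wild type replicate 1. Slc25a20, the carnitine carrier of mitochondria, rose from 190, 208 and 280 to 538, 925 and 442, and Slc40a1, the iron exporter ferroportin, from 21.6, 29.8 and 19.4 to 76.1, 99.3 and 61.2. Of 78 channel genes 1 was higher and 1 lower (2.56% called). Cdkn2a, a cell cycle inhibitor, rose from 12.5, 10.7 and 24.9 to 44.1, 50.6 and 32.2. With Cdkn1c it made 2 of 8 inhibitors of cyclin-dependent kinases that rose (25%, beside 4.68% of all genes).

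**Figure D4:**
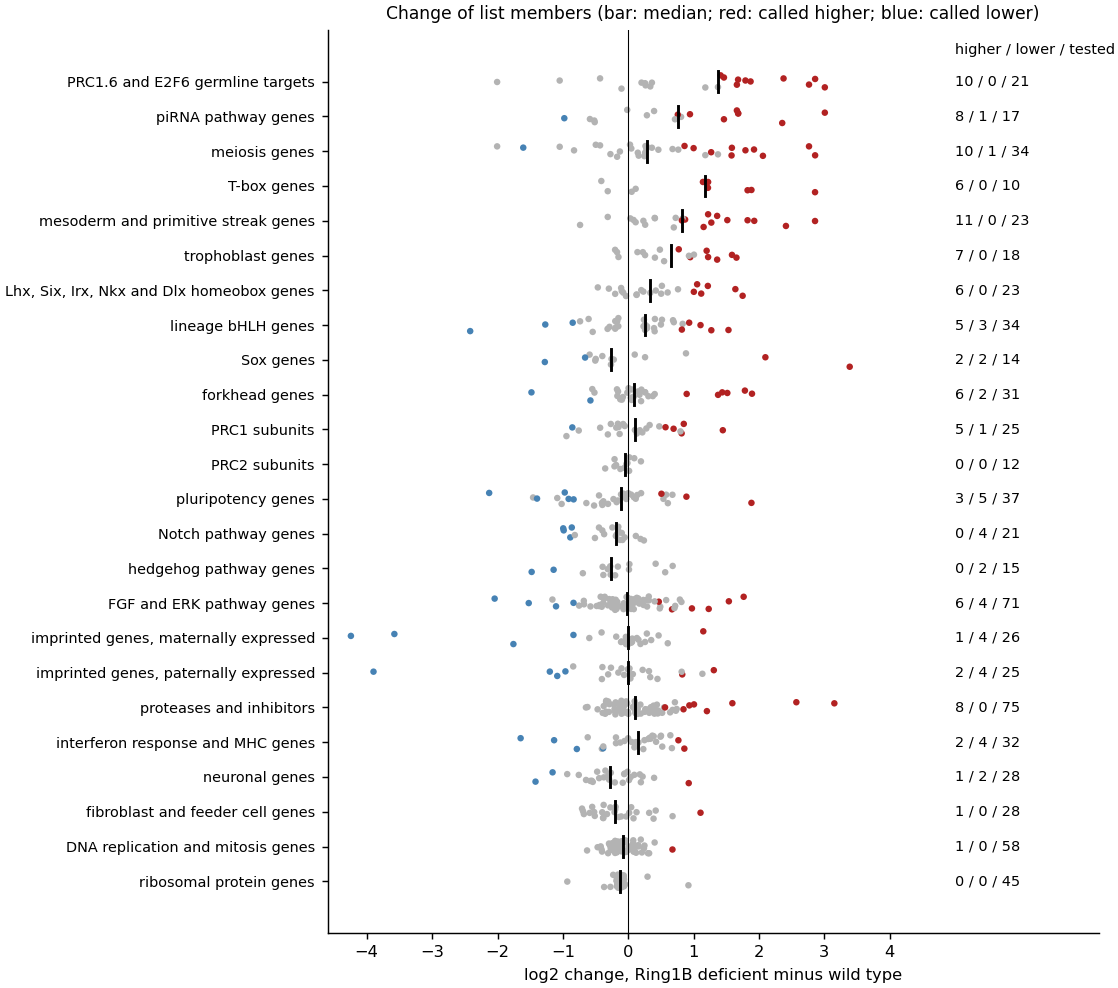
Log2 change between Ring1B deficient and wild type cells for the tested members of 24 gene lists; each point is a gene, red if called higher, blue if called lower, grey if not called, and black bars are medians. Germline, T-box, mesoderm and trophoblast lists lie to the right of 0, while 0 of 45 ribosomal protein genes and 0 of 12 PRC2 genes were called.

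The loss of Ring1B can be read a second time in other arrays, as the double deficient cells against the Eed deficient cells. There 150 genes (1.07%) were called higher and 115 (0.822%) lower. Of the 655 genes higher in Ring1B deficient cells, 51 were higher there too, 7.79% of the first list and 34% of the second, and 3 were lower. Of the 350 lower genes, 15 were lower there too, 4.29% of the first list and 13% of the second, and 2 were higher. The median change of the 655 genes was 0.26 in these arrays, where all genes had a median of 0.06 and 57.3% lay above 0, and 490 of the 655 (74.8%) lay above 0. These counts rest on single arrays more than the first comparison does. Without double deficient replicate 3, 26 genes were higher and 19 lower, 15 of them shared with the 655 and 7 with the 350. Without double deficient replicate 1 these were 43, 32, 16 and 6, without double deficient replicate 2 they were 70, 69, 26 and 9, without Eed deficient replicate 1 they were 55, 33, 25 and 7, and without Eed deficient replicate 2 they were 62, 52, 30 and 10.

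The scaling also mattered in this second comparison. With arrays centred on their medians, which moved the median of all genes from 0.06 to -0.11, 89 genes were higher and 323 lower, and 21.6% of the calls were rises instead of 56.6%. With quantile normalization they were 149 and 189, 44.1% of them rises. Chromosome 6 stood apart as well, with a level of 0.22 to 0.23 in the Eed deficient arrays and of -0.04 to 0.001 in the double deficient arrays, and a median change of -0.21 between them.

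Germline genes were called in both comparisons. Of the 58 tested, 9 were higher in double deficient than in Eed deficient cells (15.5%) and 4 lower, 8 were higher in both comparisons, and 20 of the 21 that rose in Ring1B deficient cells lay above 0 in the second. With median centring or quantile normalization 8 were higher, and without 1 array between 5 (Eed deficient replicate 1) and 10. The median change of the 58 was 0.28 in the second comparison. There 1 of 26 Hox genes was higher and 0 lower (median 0.475), and of 25 endoderm genes 4 and 0 (0.42). Both comparisons called 5 Hox and endoderm genes higher, so this was not particular to germline genes. Mael stood at 403, 508 and 386 in Eed deficient and at 1117, 1339 and 1100 in double deficient cells (1.45 ± 0.16, adjusted p = 0.00091), Slc25a31 at 145, 320 and 211 and 641, 1158 and 567 (1.78 ± 0.35, adjusted p = 0.0241) and Rhox13 at 97.0, 194 and 144 and 555, 639 and 568 (2.03 ± 0.23, adjusted p = 0.00091). The last had nearly the same change in both comparisons, 2.17 and 2.03. Hsf2bp fell in both, with changes of -1.61 and -1.58, and so did Mest, which lies on chromosome 6, with -3.90 and -3.18. The apoptosis protease gene Casp8 rose in both, by 1.47 and 1.50, and so did the Wnt antagonist Dkk1, by 1.54 and 1.48.

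A test of the difference between the 2 Ring1B comparisons called 266 genes (1.9%), 99 of them with a positive difference (0.708%) and 167 with a negative one (1.19%). Among them were 134 of the 655 higher and 59 of the 350 lower genes. Leaving out an array moved the 266 by over 1.5 times in 3 cases, to 172 without Ring1B deficient replicate 3, to 135 without double deficient replicate 1 and to 92 without double deficient replicate 3. In each of these 193 genes the difference had the sign opposite to the change in Ring1B deficient cells, a change that is itself a term of the difference, so the signs are not independent. Srgn was 4.49 higher on Ring1B loss in otherwise normal cells and -0.23 in Eed deficient cells, a difference of -4.73 (adjusted p = 1.7e-06). Eed deficient cells already had 1026, 1114 and 952 for this gene. Meg3 and Rian showed the reverse, with differences of 5.07 and 4.35. Among the germline genes Mael (-1.56), Mov10l1 (-1.81) and Tdrkh (-1.33) had smaller changes on the Eed deficient background, while differences for Slc25a31 (-0.59, adjusted p = 0.588) and Ddx4 (-0.26, adjusted p = 0.705) were not called. The 5 genes called in opposite directions were Kndc1, Pla2g10 and Tead4, higher in Ring1B deficient cells, and Efnb2 and Zfp869, lower in them. The calls of Tead4, Efnb2 and Zfp869 in Ring1B deficient cells ended without any of 4 or 5 arrays each, and Tead4 lies on chromosome 6.

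**Figure D5:**
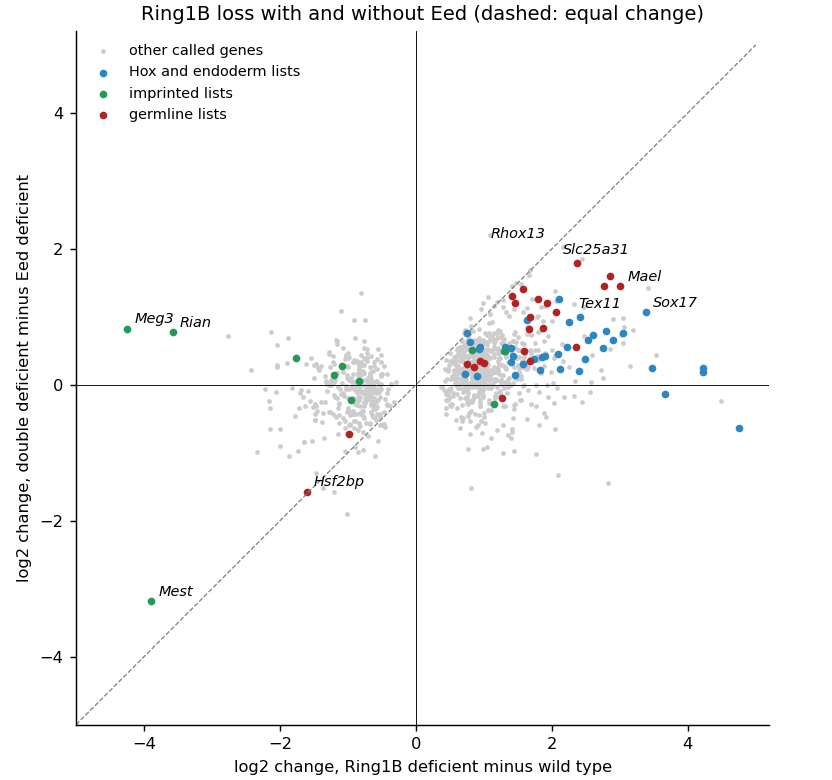
Log2 change on Ring1B loss for the 1005 genes called in Ring1B deficient cells: x, Ring1B deficient minus wild type; y, double deficient minus Eed deficient. Of the 21 germline genes that rose, and so lie right of 0 by choice, 20 lie above 0 on the y axis. Hox and endoderm genes spread along the x axis, with 5 called higher in both comparisons. Meg3 and Rian have opposite signs and Mest is low in both.

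Set directly against Eed deficient cells, Ring1B deficient cells differed in 626 genes (4.48%), 471 of them higher (3.37%) and 155 lower (1.11%) in Eed deficient cells. Replicate numbers met the rule for pairing between these genotypes, and with the number as a block 1706 genes were called, 1142 higher and 564 lower. The other values of this paragraph are from the fit without the block, except where the block is named. The 626 came to 186 without Ring1B deficient replicate 3, to 377 without Eed deficient replicate 2, to 220 without Eed deficient replicate 3 and to 392 with median centring. Of the 21 germline genes that rose on Ring1B loss, 10 were lower in Eed deficient than in Ring1B deficient cells and 0 were higher. Of all 655 genes that rose, 40 were lower and 49 higher in Eed deficient cells. These genes were chosen for high values in the same Ring1B deficient arrays, so part of any excess of lower calls is fixed by the choice. The 10 came to 17 with the replicate block and to 6 without Ring1B deficient replicate 3 or Eed deficient replicate 3. Mael was lower in Eed deficient cells, with a log2 change of -2.05 (adjusted p = 2.5e-05), Tex11 with -1.71 (adjusted p = 0.00186), Mov10l1 with -1.67 (adjusted p = 0.00172) and Ddx4 with -1.53 (adjusted p = 0.00198). Mest went the other way, with 24.4, 35.8 and 23.1 in Ring1B deficient and 361, 269 and 348 in Eed deficient cells (3.35, adjusted p = 4e-06). Against the same wild type arrays Eed deficient cells had log2 changes of 0.96 for Mael, -0.06 for Ddx4 and 4.06 for Srgn, beside 3.01, 1.46 and 4.49 in Ring1B deficient cells. Over all genes 10.8% were called higher and 4.55% lower in Eed deficient than in wild type cells.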

How the data were processed

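RNA from 12 cultures was hybridised to Affymetrix Mouse 430_2.0 arrays. The deposited intensities are MAS5 signals, per the submitters' processing notes, on a linear scale; the 2% trimmed mean of every array was 100. Probe sets were named from the platform annotation, and 932 with several symbols and 9160 without an entry were left unnamed. Probe sets entered when 3 or more of 12 arrays exceeded that array's 40th percentile, and the brightest one stood for a gene. On log2(signal + 5), limma 3.58.1 (R 4.3.3) fitted 4 genotype means over 12 arrays with an intensity trend, and Benjamini-Hochberg adjustment ran over 13985 genes. Same-number arrays met the rule for pairing where every correlation of their deviations exceeded 0.1. This held for Ring1B against Eed deficient cells (0.179 to 0.614) and not for wild type against Ring1B deficient cells. The main fit had no replicate block for any comparison, and the block was run as an alternative. The script was tested on simulated data. Genes named were set by rule (the 20 largest rises and falls without overlap between the arrays, up to 6 members per list, whole lists of up to 12, runs, the 10 largest differences between the Ring1B comparisons); genes outside it were chosen after their values were seen. The members and all 60 gene lists were chosen with earlier results of these data known. Alternatives covered normalization, the added value, the filter, the probe set rule, the arrays fitted, the trend, a replicate block, chromosome 11 and each array left out.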

Additional observations from a re-analysis of the deposited data

Results flagged for a closer look

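The change on Ring1B loss differed between cells with and without Eed in 266 genes by limma's interaction term. The 10 largest differences (log2, the change in Eed deficient cells minus the change in otherwise normal cells) were -5.38 for Ttr, -4.73 for Srgn, -4.26 for Alox12b, -4.03 for Hoxa9, -3.98 for Cubn, -3.81 for Dab2, -3.50 for Gt(ROSA)26Sor, 3.48 for Nxf3, 4.35 for Rian and 5.07 for Meg3. Hoxa9 and Gt(ROSA)26Sor lie on chromosome 6, whose level was raised in the Eed deficient arrays. Among PRC1.6 and E2F6 targets the term was called for Mael (-1.56), Stag3 (-1.67), Tdrkh (-1.33) and Sycp1 (1.67). Sycp1, a synaptonemal complex gene, was not called in Ring1B deficient cells.

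Signal also changed in probe sets that the annotation used here does not name. Of 4106 such probe sets that passed the filter, 48 were called higher and 49 lower in Ring1B deficient cells (2.36%). The same fit held 30030 kept probe sets, of which 874 were called higher and 476 lower. Unnamed probe sets were thus not called more often than the rest of that fit.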

How the results depend on the processing

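Fitting the 6 wild type and Ring1B deficient arrays alone gave 396 rises and 166 falls. Leaving out 1 array gave 431 to 595 rises and 158 to 282 falls on Ring1B loss, 26 to 202 higher and 19 to 82 lower genes in double deficient against Eed deficient cells, 92 to 277 genes whose change differed with and without Eed, and 186 to 461 genes between Eed and Ring1B deficient cells. For double against Eed deficient cells, median centring gave 89 higher and 323 lower genes, quantile normalization 189 lower and no intensity trend 74 lower. Median centring gave 392 genes between Eed and Ring1B deficient cells. The causes were not tested. Pairing by replicate number fell short of the rule between wild type and Ring1B deficient arrays, where same-number arrays deviated together at correlations of 0.066 to 0.456 and other numbers at -0.469 to 0.194, although 5 of 6 arrays correlated best with their own number. With a replicate block 1276 genes rose and 948 fell on Ring1B loss alone, with 655 and 648 in double deficient cells, 1260 for the difference and 1706 between Eed and Ring1B deficient cells. Genes not called that changed sign were Ring1, at -0.0263 without wild type replicate 2 and up to 0.2921, Suz12, at 0.0030 without wild type replicate 3 and down to -0.1153, and Nanog, at 0.0073 without wild type replicate 3 and down to -0.2340. No gene called in Ring1B deficient cells and named here changed sign under any alternative run. Of 101 called genes named here, 68 kept direction and call under all alternatives run, 28 lost the call without 1 array and 25 under another processing alternative. Dim probe sets limit what can be read for genes such as Tdrd1.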
